A study of Cricetulus griseus with 6 samples.

Results

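ISGylation is the covalent attachment of ISG15, a small ubiquitin-like protein, to other proteins, and the genes described here are the modifier and the enzymes that join it to targets or remove it. The members were chosen by symbol, as Isg15 for the modifier, Uba7 for the activating enzyme, Ube2l6 for the conjugating enzyme, Herc6 and Trim25 for ligases and Usp18 for the protease. All 6 symbols were found, each on 1 of the 27873 rows of the deposited expression files, and 5 of the 6 were expressed enough to be tested. The rule names the genes by their role and uses no threshold on a measured value.

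ISG15 is made as a precursor and then passes through a cascade that parallels that of ubiquitin. UBA7 (also called UBE1L) activates it and hands it to the conjugating enzyme UBE2L6 (UBCH8), and a ligase, HERC5 in humans and HERC6 in mice, directs it to proteins, many of them newly made, while USP18 cleaves it off again and also restrains signalling from the type I interferon receptor. The genes of this cascade are known as interferon-stimulated genes, which carry promoter elements read by transcription factors that interferon activates, and free ISG15 can also be secreted.

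The cells were CHO-T cells, a line made by infecting Chinese hamster ovary (CHO) cells, an established line of epithelial-like shape, with a retroviral vector for mouse T-cadherin (Cdh13) and selecting with puromycin, so all libraries, controls included, carry this transgene. Cells received either a negative control siRNA or an siRNA against Xbp1 and were collected 48 h later, and each treatment is represented by 3 libraries. Xbp1 encodes a transcription factor of the unfolded protein response whose mRNA is spliced by the endoplasmic reticulum stress sensor IRE1α, and the study asked which pathways link this branch of the stress response to the release of extracellular vesicles. All libraries came from 1 stable line, and the labels number the replicates without saying whether they were separate cultures. The methods of the study say of its results in general that they come from independent experiments, without naming these libraries, so the p-values below measure only the spread between these libraries, which may be technical.

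Values were FPKM, fragments scaled to transcript length and to the mapped fragments of the library, and were tested with limma as log2(FPKM + 0.1) over the 14361 rows with a mean FPKM of at least 0.1. On this scale the change of a weakly expressed gene is understated. "Rose" and "fell" are used for a Benjamini-Hochberg adjusted p under 0.05 over all rows tested, and "called" for rows that in addition changed by at least 1 on the log2 scale. With Xbp1 siRNA, 20.2% of all rows tested rose and 20.2% fell, 40.4% in either direction, and 5.19% were called, 2.69% higher and 2.5% lower. The columns summed to between 646651 and 666267 FPKM with control siRNA and to between 593487 and 600986 FPKM with Xbp1 siRNA, with 15109 to 15185 and 15371 to 15545 rows above 0, so the groups did not overlap in either measure, whose part in the results was not tested. The relative read depth, taken from the steps of low FPKM values, lay between 94.0% and 116% of that of control replicate 1. Xbp1 itself had 26.0, 26.2 and 28.4 FPKM with control siRNA and 2.18, 2.11 and 1.39 FPKM with Xbp1 siRNA, and its log2 fold change was −3.78 (SE 0.16, adjusted p = 5.61e-06, limma). Of the markers of other cell types, Ptprc and Cd3e of immune cells were listed at 0 in every library, as were Cdh5 of endothelium, Fshr of the ovarian follicle and Krt18, Col1a1 and Col1a2, while Vim, Fn1 and S100a4 were expressed. Amh, the other ovarian marker found, was expressed, at 2.07 to 3.16 FPKM with control siRNA and 2.35 to 3.55 FPKM with Xbp1 siRNA. The summed epithelial markers were higher with Xbp1 siRNA, at 4.59 to 5.79 FPKM against 1.83 to 2.16 FPKM, and the summed mesenchymal markers were lower, at 337 to 364 FPKM against 405 to 429 FPKM, a sum made up mostly of Vim, while Fn1 of the same list rose from 13.1 to 23.3 FPKM. The summed immune markers, nearly all Cd68, were at 7.03 to 8.84 FPKM against 5.18 to 6.25 FPKM, and the part of such differences in the results below was not tested.

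After Xbp1 silencing Uba7 rose about 2-fold, Trim25 rose by less than that, and Isg15 fell to 60.6% of its control mean. The change of Uba7 passed the test in all 14 alternative fits and that of Trim25 in 13, but that of Isg15 in only 6, although it was lower in each. Herc6 and Ube2l6 were under 1 FPKM in every library and did not pass the test, and Usp18 was listed at 0 throughout. Of the 5 members tested, 2 rose and 1 fell, against the 40.4% of all rows that passed in either direction, and none was called because none reached the fold limit, against 2.69% of all rows called higher and 2.5% called lower. The median log2 fold change of the 5, which is the value of Herc6, was 0.28, against 0.0063 over all rows, and with a pseudocount of 1 it was 0.091. These are bulk libraries, in which fewer cells expressing a gene and less RNA of it per cell cannot be told apart.

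**Figure D1:**
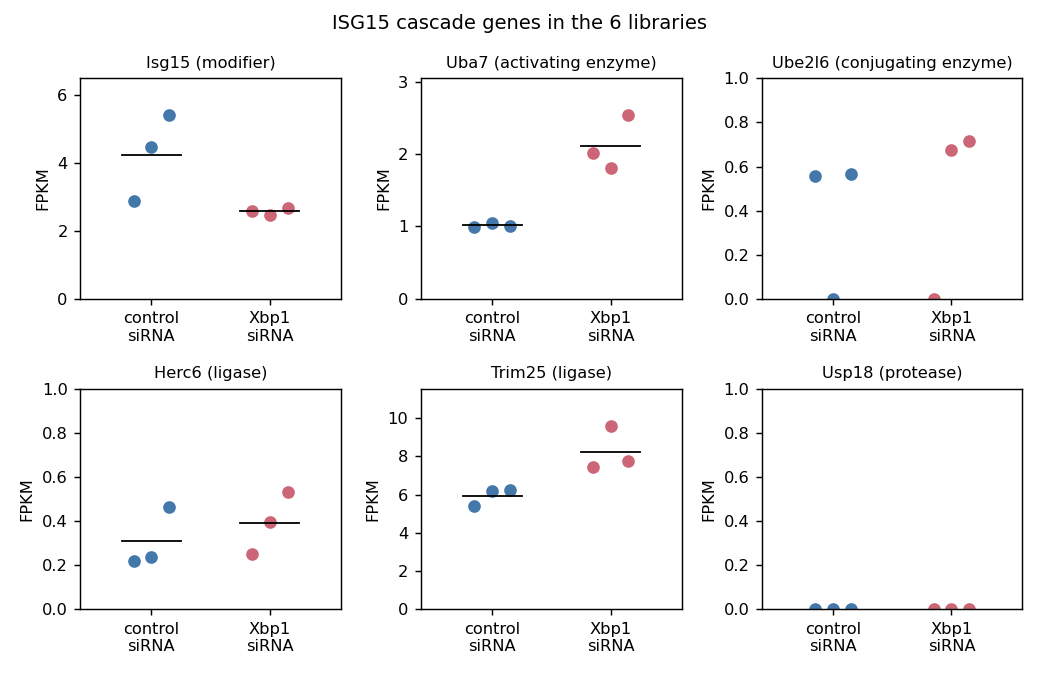
FPKM of the 6 ISG15 cascade genes in each library, with control siRNA in blue and Xbp1 siRNA in red; points are libraries and black lines are means, drawn only where no library of the group was at 0. The Isg15 points are lower and the Uba7 and Trim25 points higher with Xbp1 siRNA, with no overlap, the Herc6 and Ube2l6 points overlap, and Usp18 is at 0 in all 6 libraries.

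Isg15 encodes the modifier, a protein built of a pair of ubiquitin-like domains. Its level was 2.87, 4.46 and 5.40 FPKM in control replicates 1, 2 and 3, and 2.58, 2.47 and 2.66 FPKM in the Xbp1 siRNA replicates. The control libraries were spread widely and the Xbp1 siRNA libraries lay close together, below all of them, so the groups did not overlap, but the lowest control library was only slightly above the highest Xbp1 siRNA library. No overlap was found in 51.8% of all rows tested. The means were 4.24 ± 1.28 FPKM (SD, n = 3) and 2.57 ± 0.0937 FPKM (SD, n = 3), and the log2 fold change was −0.66 (SE 0.22, 95% interval −1.17 to −0.14, adjusted p = 0.0477, limma). Permuting the 3 control and 3 Xbp1 siRNA libraries (exact, two-sided) gave p = 0.10, the smallest this design allows.

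In each of the 6 libraries the Isg15 value was a whole multiple of a step, which differs between libraries with their relative depth, and taking the step as 1 read gave its reads. Control replicates 1, 2 and 3 held 13, 19 and 24 reads, and the Xbp1 siRNA replicates 12, 11 and 14 reads. Counting error alone was therefore wide, with exact Poisson 95% intervals of 6.92 to 22.2 reads for control replicate 1, 15.4 to 35.7 reads for control replicate 3 and 5.49 to 19.7 reads for Xbp1 siRNA replicate 2. Over each group there were 56 and 37 reads, and the ratio of Xbp1 siRNA to control after division by relative depth was 0.609 (95% interval 0.391 to 0.939, for counting error only, since reads are not known to be independent molecules).

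**Figure D2:**
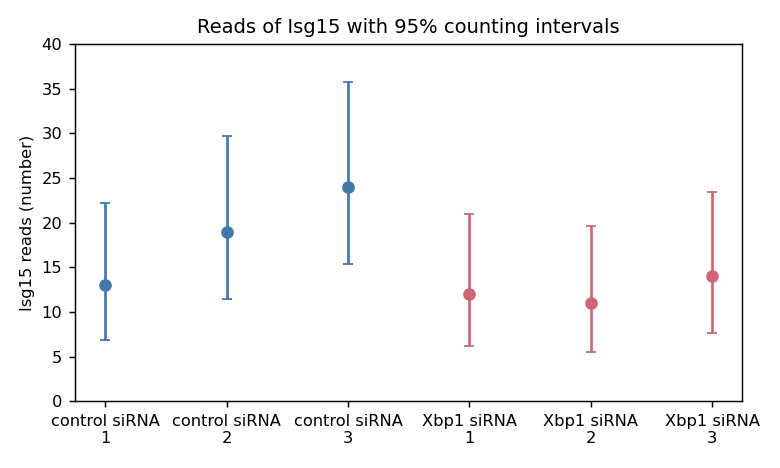
Reads of Isg15 recovered from the FPKM steps, per library (vertical axis, number of reads), with control siRNA in blue and Xbp1 siRNA in red; bars are exact Poisson 95% intervals. The counts run from 11 to 24 reads, and the interval of every library overlaps that of each of the others.

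With 1 library left out in turn, the log2 fold change stayed between −0.91 and −0.46, and the adjusted p was 0.00330 without control replicate 1, 0.129 without control replicate 2, 0.128 without control replicate 3, 0.103 without Xbp1 siRNA replicate 1, 0.114 without Xbp1 siRNA replicate 2 and 0.0967 without Xbp1 siRNA replicate 3 (limma). The direction was lower in each of these fits, but the test was passed only in the fit without control replicate 1. With all libraries it was also missed with a pseudocount of 1 (adjusted p = 0.0530, limma), without a filter on low values (adjusted p = 0.0694) and with a variance model without trend (adjusted p = 0.0851). In the RefSeq gene table of the Chinese hamster (assembly CriGri-PICRH-1.0), used for gene order only because the build of the files was not given in the sources used here, the span of Isg15 overlaps a long noncoding RNA (LOC118238266), which was not analysed here. The libraries were made with a stranded kit, but whether strand was used in counting was not given in the sources used here, so reads of overlapping genes could not be told apart. Agrn, which follows that RNA and encodes the basement membrane proteoglycan agrin, rose from 18.9 ± 0.625 to 24.6 ± 0.383 FPKM (SD, n = 3), a change of 0.38 on the log2 scale (adjusted p = 6.65e-04, limma).

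Uba7 encodes the enzyme that activates ISG15 at the expense of ATP. It had 0.989, 1.05 and 1.01 FPKM in the control libraries and 2.01, 1.81 and 2.54 FPKM in the Xbp1 siRNA libraries. All 3 Xbp1 siRNA libraries lay above the controls, which agreed closely with each other. The means were 1.02 ± 0.0322 FPKM (SD, n = 3) and 2.12 ± 0.378 FPKM (SD, n = 3), and the log2 fold change was 0.98 (SE 0.18, 95% interval 0.56 to 1.39, adjusted p = 0.00382, limma). Under each of the 14 alternatives, leaving out each library included, the adjusted p stayed between 0.00355 and 0.0164 (limma). Its value fell just short of the fold limit, and passed it with a pseudocount of 0.01, at 1.04, without control replicate 2, at 1.00, without Xbp1 siRNA replicate 1, at 1.01, and without Xbp1 siRNA replicate 2, at 1.08. With a pseudocount of 1, which weighs more on weakly expressed genes, it was 0.62.

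The levels of the modifier and its activating enzyme lay closer together with Xbp1 siRNA. Because FPKM is scaled to transcript length, the 2 genes were set against each other within each library. Isg15 stood at 2.90, 4.24 and 5.35 times the FPKM of Uba7 in the control libraries, and at 1.28, 1.37 and 1.05 times in the Xbp1 siRNA libraries. The ratio was thus above 1 in every library but fell into ranges that did not overlap. The log2 ratio of Uba7 to Isg15, with 0.1 added to each, was −1.91 ± 0.436 (SD, n = 3) with control siRNA and −0.28 ± 0.193 (SD, n = 3) with Xbp1 siRNA, a difference of 1.63, for which the same exact permutation test, two-sided, gave its smallest p of 0.10. This difference lay between 1.15 and 1.87 with other pseudocounts or with 1 library left out. In every Xbp1 siRNA library Uba7 was above, and Isg15 below, all of the control libraries. The ratio therefore had to separate the groups, and its p restates the changes of the 2 genes and adds nothing to them. The permutation test cannot go below that p in this design, and the fall of Isg15 on its own missed the threshold in 8 of 14 alternatives.

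Ube2l6 encodes the conjugating enzyme that receives ISG15 from UBA7. The files listed it at 0.555, 0 and 0.567 FPKM in control replicates 1, 2 and 3 and at 0, 0.677 and 0.717 FPKM in Xbp1 siRNA replicates 1, 2 and 3. Thus 1 library of each group was listed at 0 while the other libraries were close to each other. Among the 13209 rows that reached more than 0.5 FPKM in some library, 629 were listed at 0 in at least 1 library and above 0 in another, and a 0 can be an estimate that failed as well as a gene without reads. The log2 fold change of Ube2l6 was 0.18 (SE 1.04, 95% interval −2.24 to 2.60, adjusted p = 0.911, limma), an interval that leaves both a large decrease and a large increase possible. The sign turned without control replicate 2 (−0.73), without Xbp1 siRNA replicate 2 (−0.30) and without Xbp1 siRNA replicate 3 (−0.34), and without Xbp1 siRNA replicate 1 the value was 1.18. With both libraries at 0 treated as missing, a choice made after the values were seen, it was 0.27 (SE 0.30, adjusted p = 0.530, limma).

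Herc6 encodes the ligase that takes most ISGylation in mice, where it stands in for human HERC5. Its level was 0.221, 0.239 and 0.465 FPKM in the control libraries and 0.251, 0.398 and 0.532 FPKM in the Xbp1 siRNA libraries. The groups overlapped, and the highest library of each group lay well above the lowest of the other. The means were 0.308 ± 0.136 FPKM (SD, n = 3) and 0.394 ± 0.141 FPKM (SD, n = 3), and the log2 fold change was 0.28 (SE 0.38, 95% interval −0.60 to 1.16, adjusted p = 0.595, limma). A difference was not detected, and a doubling lies within the interval. Of all rows with a mean FPKM from 0.1 to 1, 9.34% passed the test, against 36% of those from 1 to 10 FPKM and 52.9% of those from 10 to 100 FPKM. In the RefSeq table the span of Herc6 overlaps that of Ppm1k, a mitochondrial phosphatase gene of 2.91 and 2.60 FPKM with control and Xbp1 siRNA.

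Trim25 encodes a ligase of ubiquitin and of ISG15 that is better known for adding ubiquitin chains in RIG-I signalling. It was the most abundant member, with 5.42, 6.17 and 6.26 FPKM in the control libraries and 7.42, 9.59 and 7.73 FPKM in the Xbp1 siRNA libraries. Every Xbp1 siRNA library was above every control, and Xbp1 siRNA replicate 2 was the highest of all. The means were 5.95 ± 0.460 FPKM (SD, n = 3) and 8.25 ± 1.17 FPKM (SD, n = 3), and the log2 fold change was 0.46 (SE 0.12, 95% interval 0.18 to 0.74, adjusted p = 0.0177, limma). Without control replicate 1 it was 0.39 and the adjusted p 0.0538 (limma), and in the other 13 alternatives it rose. The span of Trim25 overlaps that of the noncoding RNA LOC103161399, which had 0.853 and 0.814 FPKM with control and Xbp1 siRNA.

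Usp18 encodes the protease that removes ISG15 from its targets, and it was listed at 0 FPKM in all 6 libraries, as were 10274 of the 27873 rows. No fold or test was made for it, and without the reads behind its row no upper limit can be given.

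**Figure D3:**
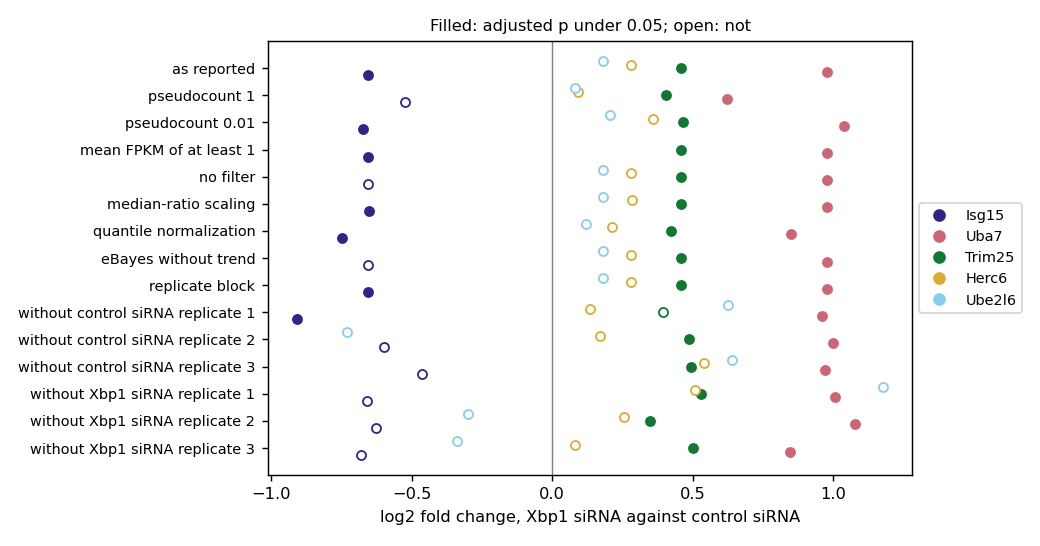
Log2 fold change of the 5 members tested (horizontal axis, Xbp1 siRNA against control siRNA) as reported and under each alternative (vertical axis); filled points have an adjusted p under 0.05 and open points do not. Uba7 is filled in every row, Trim25 in all but the fit without control replicate 1 and Isg15 in 7 of the 15 rows, while Ube2l6 lies on both sides of 0.

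In the control libraries the order of the FPKM levels was Trim25, Isg15, Uba7, Ube2l6, Herc6 and Usp18. The lowest Trim25 value, 5.418 FPKM, was barely above the highest Isg15 value, 5.398 FPKM, although Trim25 was above Isg15 within each library, and the ranges of Ube2l6 and Herc6 overlapped. With Xbp1 siRNA the order of the means was the same, but Isg15 and Uba7 now overlapped, the lowest Isg15 value of 2.47 FPKM lying under the highest Uba7 value of 2.54 FPKM. Set among all rows tested by mean FPKM, Trim25 stood above 41.7% of the rows, Isg15 above 30.8%, Uba7 above 23.2%, Ube2l6 above 12.4% and Herc6 above 11.0%, so every member tested was in the lower part of the expressed genes.

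**Figure D4:**
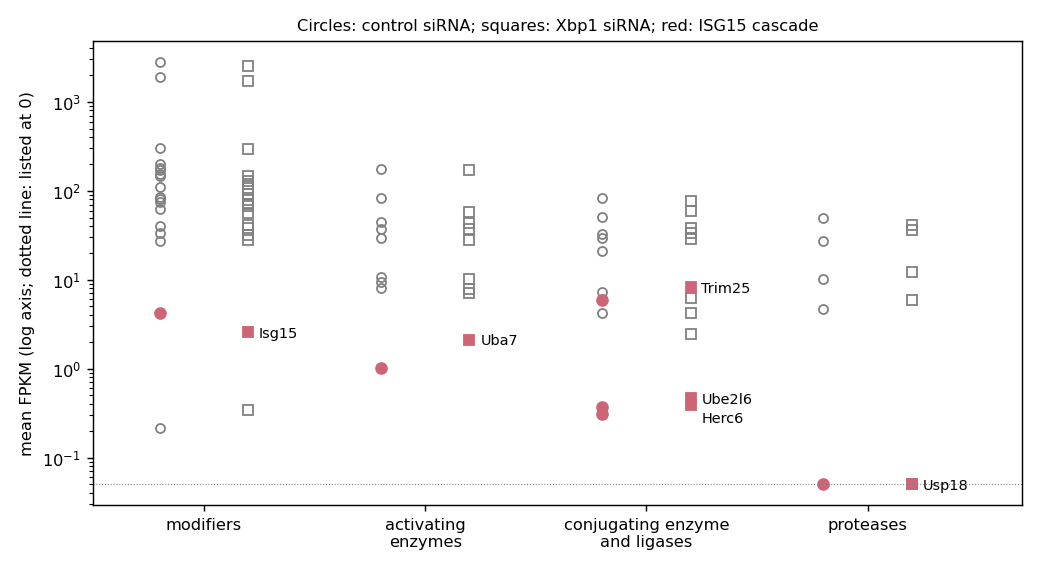
Mean FPKM (log axis) of ISG15 cascade members, in red, and of the genes with the same role for ubiquitin and other modifiers, in grey; circles are control siRNA and squares Xbp1 siRNA, and the dotted line marks rows listed at 0. Each mean is over 3 libraries, 1 of which lists Ube2l6 at 0 in each group. Isg15 lies below the other modifiers except Ubd, and Uba7 below the other activating enzymes.

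The cascade was next set beside the other genes of ubiquitin-like conjugation, which were chosen by role. Among 17 other modifiers none rose and 9 fell, where 20.2% of all rows rose and 20.2% fell, with a median log2 fold change of −0.18, while after quantile normalization 3 rose and 7 fell, with Rps27a, Fau and Nedd8 turned to higher. Ubb, a precursor gene of ubiquitin, fell from 181 to 145 FPKM, Sumo2 fell by 0.76, and Map1lc3b and Gabarapl1 of the autophagy conjugation system were called lower, at −1.01 and −1.04. Isg15, at 4.24 FPKM, had less than any of these except Ubd (FAT10), the other interferon-inducible modifier, which went from 0.214 ± 0.191 to 0.345 ± 0.165 FPKM (SD, n = 3; adjusted p = 0.387, limma). Of 8 other activating enzymes, 2 fell and none rose, against the same 20.2% of all rows each way, except that Uba1 of ubiquitin turned to higher, at 0.11, after quantile normalization. Those that fell were Sae1, a subunit of the SUMO activating enzyme, at −0.52, and Mocs3, the activating enzyme of URM1, at −0.41. Uba7 was the only gene among these 9 activating enzymes that rose in the fit as reported.

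Among 8 relatives of the conjugating enzyme and ligases, 3 rose and 2 fell, against 20.2% of all rows in each direction. Ube2l3 (UBCH7), the closest relative of Ube2l6, went from 83.2 ± 1.04 to 77.7 ± 1.74 FPKM (SD, n = 3; log2 fold change −0.10, adjusted p = 0.0496, limma) and no longer passed whichever library was left out, with adjusted p from 0.0557 to 0.152. Ube2e3 rose by 0.68, Arih1, the ligase that EIF4E2 ISGylation has been tied to, by 0.37, and Ube2e2 by 0.19. Trim56, a ligase that acts in the cGAS and STING pathway, was called lower, from 7.23 ± 0.839 to 2.48 ± 0.140 FPKM (SD, n = 3), a change of −1.50 on the log2 scale (adjusted p = 6.26e-05, limma), against the rise of Trim25. Of 4 other proteases that accept ISG15, 3 rose and 1 fell, against 20.2% of all rows in each direction. Usp21 rose by 0.57 and Usp5 fell by 0.47. Usp13 rose by 0.31 and Usp16 by 0.27, but Usp13 no longer passed without Xbp1 siRNA replicate 2 (adjusted p = 0.0583, limma) and Usp16 when any library other than control replicate 1 was left out (adjusted p from 0.0549 to 0.0834). Usp2, like Usp18, was listed at 0 in every library.

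The genes that carry the interferon signal from receptor to promoter passed the test at a share near that of all rows. Of 9 tested, 2 rose and 1 fell, against 40.4% of all rows in either direction, with a median of 0.11, and 1 rose and none fell after quantile normalization. Irf7, a transcription factor that is itself interferon-stimulated, had 1.19, 1.39 and 1.15 FPKM in the control libraries and 2.45, 2.04 and 2.36 FPKM in the Xbp1 siRNA libraries, with no overlap and a log2 fold change of 0.83 (SE 0.16, adjusted p = 0.00478, limma). Stat2 was 0.30 higher (adjusted p = 0.0409, limma) and Irf3 0.17 lower on the log2 scale (−0.17, adjusted p = 0.0463), but Stat2 no longer passed whichever of the 6 libraries was left out (adjusted p from 0.0529 to 0.118) and Irf3 when any other than control replicate 3 was (adjusted p from 0.0861 to 0.130). Ifnar1, Jak1 and Irf9 did not pass and lay between −0.08 and 0.11.

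Other interferon-stimulated genes moved in both directions, but more of them rose than fell. Of 42 listed, 32 were found, 7 of these were listed at 0 in all libraries as Usp18 was, and 20 were tested. Of the 20 tested, 9 rose and 2 fell, against 20.2% of all rows each way. Their median log2 fold change was 0.33, against 0.0063 over all rows. Rows at 0 throughout included the strongly inducible Oas2, Rsad2, Cmpk2 and Zbp1. Among those that rose were Oasl by 0.81, Lgals3bp by 0.69, Tap1 by 0.45, Mx1 by 0.40, B2m and Bst2 by 0.38 and 0.37 and Samhd1 by 0.34. Eif2ak2, which encodes the double-stranded RNA kinase PKR, was called higher at 1.07, from 21, 17 and 9 reads to 28, 34 and 46 reads, but lost the call without Xbp1 siRNA replicate 2 (adjusted p = 0.0701, limma) and without Xbp1 siRNA replicate 3 (adjusted p = 0.0852). Cxcl10, a chemokine gene, was also called higher, at 2.93 (adjusted p = 9.94e-04, limma), and still passed the test whichever library was left out. It had 1, 2 and 1 reads against 31, 12 and 15 reads, a depth-scaled ratio of 13.4 (95% interval 4.95 to 50.7, counting error only).

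The 2 genes of this list that fell were Ifi35 and Parp14, and the values of Ifi35 over the libraries resembled those of Isg15. Ifi35, which encodes an interferon-induced leucine zipper protein, had 45, 58 and 73 reads in control replicates 1, 2 and 3 and 34, 32 and 46 reads in the Xbp1 siRNA replicates. In both genes control replicate 1 was the lowest control and the groups did not overlap in FPKM. Its log2 fold change was −0.74 (SE 0.19, adjusted p = 0.0181, limma) and its depth-scaled read ratio 0.587 (95% interval 0.459 to 0.748, counting error only), close to the 0.609 of Isg15. It no longer passed without control replicate 2, control replicate 3, Xbp1 siRNA replicate 1 or Xbp1 siRNA replicate 2 (adjusted p from 0.0511 to 0.0574, limma). Parp14, a mono-ADP-ribosyltransferase gene, went from 7.72 ± 0.359 to 5.19 ± 0.268 FPKM (SD, n = 3; log2 fold change −0.56, adjusted p = 0.00146, limma).

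**Figure D5:**
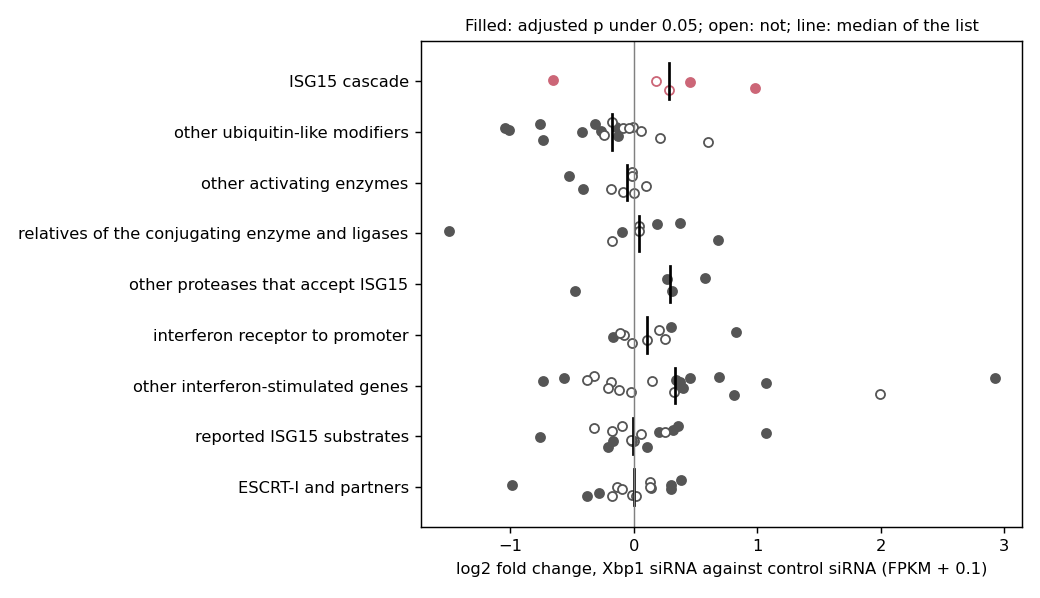
Log2 fold change (horizontal axis, FPKM + 0.1) of each gene tested in the ISG15 cascade, in red, and in the 8 other lists; filled points have an adjusted p under 0.05 and black lines are list medians. The medians lie between −0.18 for other modifiers and 0.33 for other interferon-stimulated genes, and the cascade has members on both sides of 0.

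Proteins to which ISG15 has been reported to be joined were read last. Of 16 tested, 5 rose and 3 fell, against 40.4% of all rows in either direction, with a median of −0.01, and after quantile normalization 5 rose and 1 fell. Tsg101, which encodes the ESCRT-I subunit whose ISGylation has been linked to exosome release, had 55.1, 57.7 and 62.9 FPKM in the control libraries and 49.3, 54.5 and 51.5 FPKM in the Xbp1 siRNA libraries, with no overlap but little distance between the groups. The means were 58.6 ± 3.98 and 51.8 ± 2.64 FPKM (SD, n = 3), and the log2 fold change was −0.18 (SE 0.06, 95% interval −0.32 to −0.03, adjusted p = 0.0522, limma), which passed without control replicate 1 (adjusted p = 0.0328) and without Xbp1 siRNA replicate 2 (adjusted p = 0.0451). Ppm1b, a phosphatase gene, fell by 0.76, while Mapk3 (ERK1) rose by 0.35 and Eif4e2 by 0.32. Of 14 genes of ESCRT-I and its partners, 3 rose and 3 fell, a share near the 40.4% of all rows, with a median of 0.00, and with the replicate number as a block 4 rose and 5 fell. Among them were Vps37b at −0.99 and Vps37a at 0.38. mRNA levels do not give the amount of ISG15 joined to these proteins, which was not analysed here. Itgal and Itgb2, the subunits of the LFA-1 receptor that free ISG15 binds, did not exceed 0.0803 FPKM in any library and were not tested. Over the 104 distinct genes of these 8 lists that were found, 88 were tested, of which 24 rose and 22 fell, against 20.2% of all rows in each direction.

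For each member tested, the 3 rows whose log2 values ran most nearly parallel over the 6 libraries were read as a description, among rows on which a named symbol stands once and with a mean FPKM of at least 1. Pearson's r includes the difference between the conditions, and all rows are read in the same 6 libraries, with their differences in depth. Those most like Isg15 were Tpp2 (r = 0.994), a peptidase gene that went from 18.0 to 16.3 FPKM, and Rnf219 and Suz12 (r of 0.987 and 0.983). Those most like Uba7 were Mutyh (r = 0.998), a DNA glycosylase gene that went from 5.78 to 9.77 FPKM, Plxna4 and Ppip5k1. Those most like Trim25 were Dlg1 (r = 0.996), Depdc1 and Polr3g, and no row was among the 3 of more than 1 of these members. For Ube2l6 they were Slf1, Arfgap3 and Cmc2, with r from 0.952 to 0.972, and for Herc6 Psmg1, Klf11 and Ctnnb1, with r from 0.968 to 0.984, rows whose group means differed by little.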

How the data were processed

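RNA of 6 libraries of CHO-T cells was sequenced by the authors from stranded mRNA libraries. The submitters' processing notes name HISAT2 2.1.0 and Cuffdiff 2.2.1; the genome build and annotation were not given in the sources used here. The authors deposited normalized expression in FPKM, 1 file per library, with 27873 rows named by symbol (159 symbols on 721 rows, none of them named here). The paper's methods use DESeq2 on counts; FPKM are not counts, so that test was not run. Instead limma 3.58.1 (R 4.3.3; lmFit, eBayes with trend) was applied to log2(FPKM + 0.1) for the 14361 rows with a mean FPKM of at least 0.1, with Benjamini-Hochberg adjustment. Adjusted p under 0.05 and a log2 fold change of at least 1 are the limits of the study. On 10 simulated data sets with 200 of 14361 rows changed by 1.5 on the log2 scale, 78.7% were recovered, with 2.1 false calls on average. In the data far more rows passed, and the members changed by less than 1.5, so this recovery does not carry over to them.

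The depth is not stated in the files. Of 2514 rows of low FPKM above 0 in at least 5 libraries, 73.8% held whole multiples of a step within 0.01 reads. These steps gave reads of Isg15 and some other genes and the relative depth. Uba7, Trim25 and Herc6 gave none, and Ube2l6, above 0 in fewer than 5 libraries, was not tried. The 6 members and the lists were chosen with earlier results of these data known. Named genes are Xbp1, the members, members of the lists and markers, and for each member the 3 rows of highest Pearson correlation; neighbours of members were named from the RefSeq table, in which 88.0% of 27311 symbols and all 6 members were found. The values of some listed genes are not reported here. The resemblance of Ifi35 to Isg15 was singled out after its values were seen. The alternatives changed the pseudocount (1 or 0.01), the minimum mean FPKM (1, or no minimum), the scaling (median ratios or quantile normalization) and the variance model (no trend), or used the replicate number as a block, left out each library, and, chosen after seeing the data, Ube2l6 without the libraries at 0. Other steps used Python 3.11.15, numpy 2.4.6, pandas 2.3.3 and scipy 1.17.1.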

Additional observations from a re-analysis of the deposited data

How the results depend on the processing

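Xbp1 (−3.89 to −3.28), Uba7 (0.62 to 1.08) and Herc6 (0.08 to 0.54, tested in 13 alternatives because a minimum mean FPKM of 1 removes it, as it removes Ube2l6) kept their direction and their side of the threshold under every alternative run. Isg15 no longer passed with a pseudocount of 1 (−0.52, adjusted p = 0.0530, limma), without a filter (−0.66, adjusted p = 0.0694) or with eBayes without trend (−0.66, adjusted p = 0.0851), and ranged from −0.91 to −0.46 with 1 library left out; the cause was not tested. With 1 library left out, Trim25 ranged from 0.35 to 0.53 and Ube2l6 from −0.73 to 1.18, with −0.73, −0.30 and −0.34 against its reported direction. Rows called higher numbered 386, but 114 with a pseudocount of 1 and 242 after removal of rows under a mean FPKM of 1, and rows called lower 359, but 205 with a pseudocount of 1, by construction for weakly expressed rows. Quantile normalization reversed Rps27a (0.15), Nedd8 (0.15), Fau (0.066) and Uba1 (0.11). For the 88 genes of the other lists, 1111 of 1228 recomputed values kept direction and side, 62 no longer passed, 23 newly passed, 28 changed sign without passing in either fit and 4 reversed.

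The replicate numbers are shared by both conditions, but same-numbered libraries did not deviate together (correlations of −0.029, −0.027 and −0.012, and 0 of 6 libraries correlated best with their own number). With the replicate block the adjusted p was 0.0483 for Isg15, 0.0131 for Uba7 and 0.0160 for Trim25 (limma), and the fold changes stay the same by construction. Isg15 rests on 11 to 24 reads per library, which sets its counting error. Herc6 and Ube2l6 were under 1 FPKM and their reads are not known, so the part of depth in their spread was not tested.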

Other observations

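The rows next to the members in the RefSeq gene order were read for their values alone. Beside Isg15, Plekhn1 rose from 4.71 ± 0.0646 to 6.21 ± 0.655 FPKM (SD, n = 3; log2 fold change 0.39, adjusted p = 0.0201, limma), as Agrn did. Perm1, which stands between Plekhn1 and Isg15, went from 0.595 ± 0.158 to 0.377 ± 0.130 FPKM (SD, n = 3; log2 fold change −0.56, adjusted p = 0.234, limma) and did not pass. Beside Uba7, Traip, a ubiquitin ligase gene of DNA replication, rose by 0.29 (adjusted p = 0.00309, limma) and Camkv was listed at 0 in all libraries. Near Usp18, Iqsec3, Slc6a12 and Slc6a13 were listed at 0 in all libraries as Usp18 was, and Pex26, a peroxisome import gene, rose from 2.18 ± 0.160 to 4.42 ± 0.144 FPKM (SD, n = 3; log2 fold change 0.99, adjusted p = 4.02e-04, limma). Whether these neighbours stand in the same order in the annotation behind the files was not tested.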
